A study of Homo sapiens
Mus musculus and Homo sapiens with 12 samples.

Results

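The receptors of the interleukin-6 (IL6) cytokine family and the kinase JAK1 were examined in human transcripts of fused mouse and human cells. The set holds 6 genes, chosen by name as a gene family: the receptors IL6R, IL11RA, IL6ST, LIFR and OSMR, and JAK1. They are 6 of 11650 human genes with a coding transcript covered in at least 1 library. Mouse embryonic stem cells of the D3 line were fused with human fibroblasts of the MRC5 line, and the resulting heterokaryons were collected at day 1, day 2 and day 3, with 2 libraries per day. Both are cultured cells, and the nuclei of both species remain separate in the fused cell. A homokaryon library, from human fibroblasts fused with each other, carries no time label. The comparison groups were 2 co-cultures, in which D3 and MRC5 cells were grown together unfused and harvested as 1 RNA pool, and unfused human fibroblasts, of which 2 of 3 libraries hold human transcripts. Heterokaryons were sorted, at least 30000 per sample, and polyA RNA was sequenced. The series follows reprogramming of the fibroblast over this time course.

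Cytokines of this family share a signalling subunit, gp130, which IL6ST encodes. IL6R and IL11RA bind their own ligand and bring it to gp130, whereas LIFR and OSMR pair with gp130 directly and carry signalling tails of their own. JAK1 is bound to the inner side of gp130, LIFR and OSMR, and phosphorylates the receptors and STAT3 when ligand is bound. In mouse embryonic stem cells the ligand LIF, acting through LIFR and gp130, maintains self-renewal.

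The 5 receptors are related through an extracellular module that carries the motif known as WSXWS, and a coding sequence of each holds the codons of this motif. These codons are shown because they are a feature that the receptors share and JAK1 lacks. Genes outside the set were not searched, so the motif does not set these receptors apart. The sequences are from GENCODE release 29 (GRCh38), each 45 bases, 5′ to 3′ on the coding strand, with the motif's codons in capitals. IL6R lies on chromosome 1, IL6ST, LIFR and OSMR on chromosome 5 and IL11RA on chromosome 9.
IL6R: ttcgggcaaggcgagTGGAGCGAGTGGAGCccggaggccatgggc
IL11RA: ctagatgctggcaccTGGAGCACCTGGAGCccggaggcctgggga
IL6ST: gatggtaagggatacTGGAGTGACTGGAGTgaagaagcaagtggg
LIFR, first: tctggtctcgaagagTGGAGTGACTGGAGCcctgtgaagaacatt
LIFR, second: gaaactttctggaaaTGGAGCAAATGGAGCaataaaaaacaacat
OSMR, first: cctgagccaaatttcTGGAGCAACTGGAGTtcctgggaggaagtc
OSMR, second: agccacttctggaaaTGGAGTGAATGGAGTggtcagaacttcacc
Among the covered transcripts, those of IL6R, IL11RA and IL6ST hold the motif once, those of LIFR and the longer OSMR transcript hold it at 2 places, and no match was found in the JAK1 coding sequence. For every transcript the longest stretch from a start to a stop codon was taken as the coding sequence. In the IL6ST transcript NM_175767 that stretch, 1761 bases, held no match. Whether it is the coding sequence of that transcript was not checked, so the motif may lie outside it. The first OSMR motif starts at codon 129 and the second at codon 415. The short transcript NM_001168355, with 342 codons, therefore holds only the first. In the GRCh38.p14 gene order LIFR and OSMR are neighbouring coding genes.

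Levels are given in RPKM, reads scaled to the transcript's length and to the library; the unit is inferred from the values, and RPKM, FPKM and TPM cannot be told apart in these files. Each table used lists 10000 distinct values and stops at a point in accession order that differs between libraries. A transcript missing before that point was taken as 0, and past it as not covered. Of the IL6R and IL6ST transcripts, NM_181359 and NM_175767 were covered in no library, so their sums leave these out. Unfused fibroblast replicate 1 is irregular: of its 17527 rows, 12191 lie outside the human RefSeq table. Its human rows stop earliest and cover, of the members, only IL11RA and part of IL6R and LIFR. Unfused fibroblast replicate 3 lists 4538 distinct values, holds no human transcript and was not used. Read totals are not given in the sources used here, so the depth behind each value is unknown. The median log2 difference over all genes was 0.23 for day 2 against co-culture, 0.21 for day 2 against day 1, -0.15 for day 3 against day 2 and 0.26 for day 2 against unfused fibroblasts, and at most 0.091 in the 6 other comparisons. In these bulk libraries fewer cells of a type and less RNA per cell cannot be told apart.

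OSMR and JAK1 were the abundant members and LIFR the scarcest. In co-culture OSMR averaged 52.1 RPKM, above 88.7% of the 6272 genes tested, and JAK1 25.7 RPKM, above 79.8%. IL6ST averaged 8.54 RPKM, IL6R 3.22 RPKM and IL11RA 2.71 RPKM, around the median of 5.1 RPKM over those genes. LIFR averaged 0.431 RPKM, above 13.3% of them. OSMR stood above JAK1 in every co-culture and day 1 library, and JAK1 stood above OSMR in both day 3 libraries and in day 2 replicate 2.

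**Figure D1:**
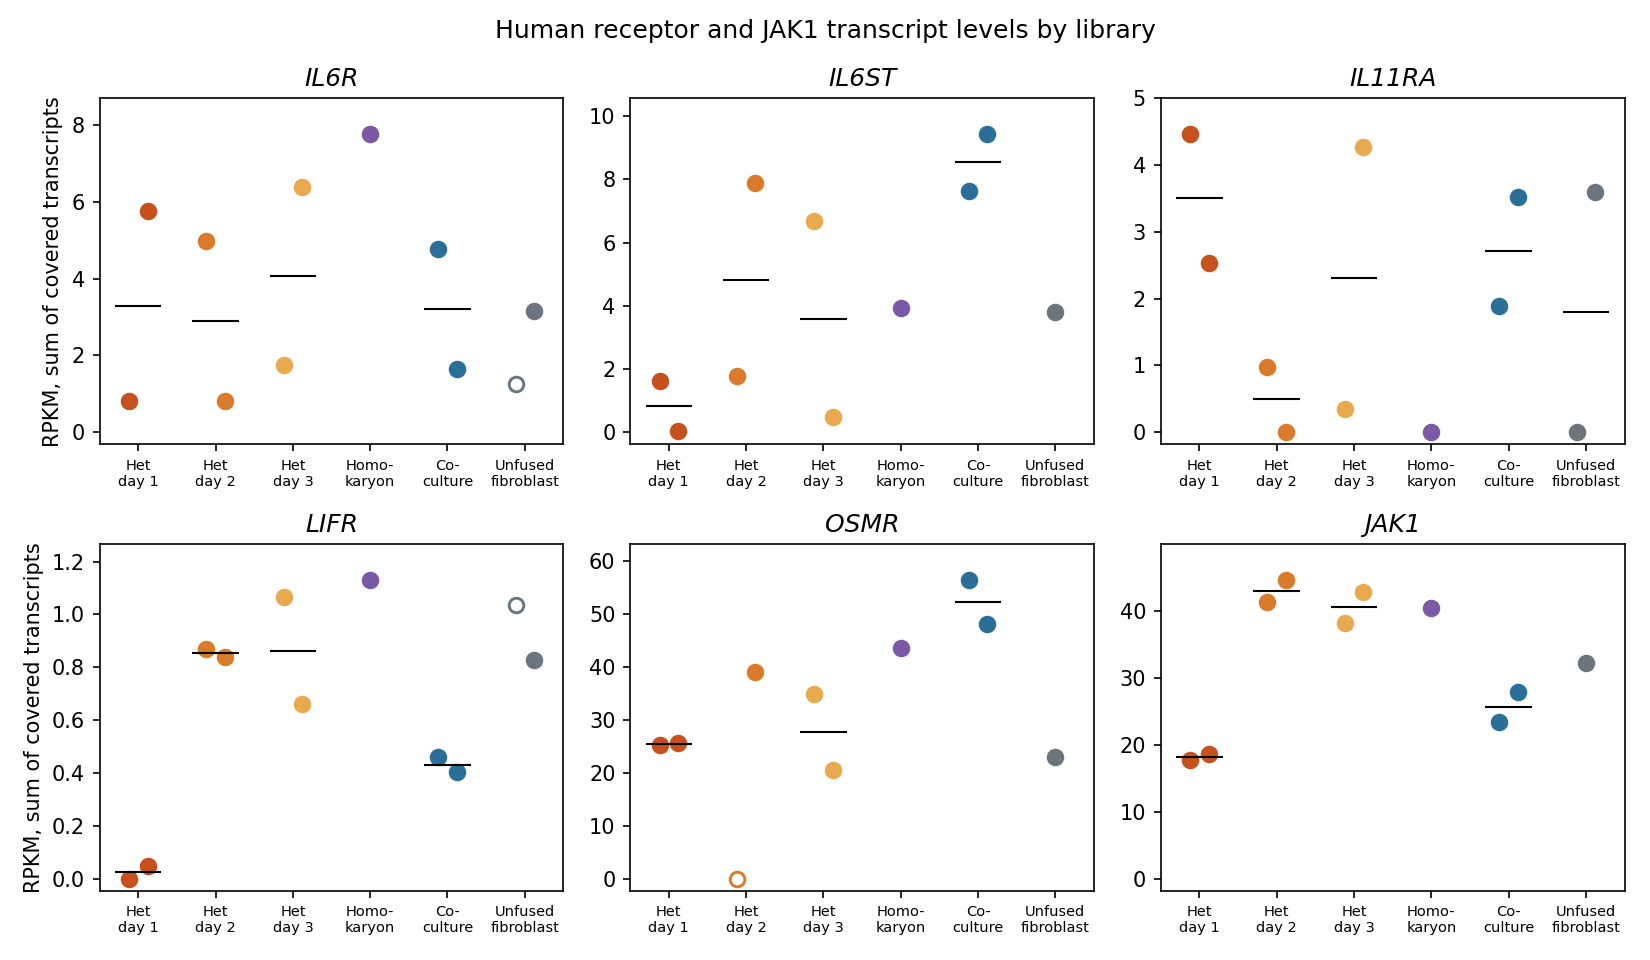
Level of each member in every library that covers it, in RPKM summed over covered transcripts (linear axes, which differ between panels); points are libraries, black lines are means of 2 libraries, and hollow points have fewer transcripts covered than the others. JAK1 is tight within groups, with day 1 lowest at 17.7 and 18.6 RPKM, whereas replicates of IL6R lie far apart at every heterokaryon day, for example 0.804 and 5.76 RPKM at day 1.

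JAK1, the kinase that the receptors share, was measured through its transcript NM_002227. It stood at 17.7 and 18.6 RPKM in day 1 heterokaryons, 41.3 and 44.6 RPKM at day 2 and 38.2 and 42.9 RPKM at day 3, against 23.5 and 27.9 RPKM in co-cultures. The homokaryon library had 40.5 RPKM and unfused fibroblast replicate 2 had 32.3 RPKM. Day 1 libraries lay below, and day 2 and day 3 libraries above, both co-cultures without overlap. From the highest group mean the order was day 2 (43.0 ± 2.34 RPKM, SD, n = 2), day 3 (40.6 ± 3.32), homokaryon, unfused fibroblast, co-culture (25.7 ± 3.11) and day 1 (18.2 ± 0.651). Day 2, day 3 and the homokaryon do not differ beyond this spread, and the unfused fibroblast value lies between the ranges of its neighbours.

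Against co-culture, day 1 gave a JAK1 log2 fold change of -0.47 ± 0.28 (SE, limma adjusted p = 0.388), day 2 gave 0.73 ± 0.29 (0.225) and day 3 gave 0.64 ± 0.29 (0.373). The day 2 value was smaller, 0.43, with upper quartile scaling and 0.57 with quantile normalization. These scalings gave -0.55 and -0.56 at day 1, and 0.59 each at day 3. Of the 5 members above the filter on low values, JAK1 had the largest differences between days relative to their error. Day 2 lay above day 1 by 1.20 ± 0.29 on the log2 scale, a 2.29-fold difference with unadjusted p = 0.00421 and adjusted p = 0.136. Day 3 lay above day 1 by 1.11 ± 0.29, with unadjusted p = 0.0062 and adjusted p = 0.141. Neither difference from day 1 passed the threshold of 0.05 after adjustment over all genes tested. Day 3 against day 2 gave -0.08 ± 0.29 (adjusted p = 0.985, 95% interval from -0.76 to 0.59), and the sign turned with upper quartile scaling (0.16) and quantile normalization (0.037).

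OSMR, the subunit that recognises oncostatin M with gp130, stood lower in heterokaryons than in co-culture in every library that covers its main transcript. Summed over both transcripts, OSMR stood at 25.1 and 25.6 RPKM at day 1 and 34.8 and 20.5 RPKM at day 3, against 56.3 and 48.0 RPKM in co-cultures. In day 2 replicate 2 it stood at 39.1 RPKM, while replicate 1 does not cover NM_003999. The homokaryon library had 43.5 RPKM and unfused fibroblast replicate 2 had 23.0 RPKM. All 5 heterokaryon libraries that cover both transcripts lay below both co-cultures, and the unfused fibroblast value lies within the heterokaryon range.

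The OSMR difference from co-culture was -1.01 ± 0.36 (SE) on the log2 scale at day 1, 2.01-fold lower, with unadjusted p = 0.0302 and limma adjusted p = 0.163. At day 3 it was -0.93 ± 0.37, 1.91-fold lower, with unadjusted p = 0.0437 and adjusted p = 0.321. Neither passed the threshold. At day 2 the 2 libraries share only the short transcript, at 0 in both against 1.78 and 1.05 RPKM in co-cultures (log2 fold change -1.26 ± 1.04, adjusted p = 0.551). With day 2 replicate 2 alone, a fit chosen after seeing the data that takes this library to vary like the other groups, both transcripts gave -0.40 ± 0.46 (adjusted p = 0.721). Day 3 against day 1 gave 0.07 ± 0.37 (adjusted p = 0.967).

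IL6ST, which encodes gp130, stood at 1.62 and 0.0373 RPKM in day 1 heterokaryons, 1.78 and 7.88 RPKM at day 2 and 6.67 and 0.498 RPKM at day 3, against 7.63 and 9.44 RPKM in co-cultures. The homokaryon library had 3.92 RPKM and unfused fibroblast replicate 2 had 3.82 RPKM. Day 1 and day 3 libraries lay below both co-cultures, while day 2 replicate 2 lay within the co-culture range. Replicates differed 43.3-fold at day 1, 4.43-fold at day 2 and 13.4-fold at day 3. Day 1 against co-culture gave a log2 fold change of -2.53 ± 0.98 (SE, unadjusted p = 0.0352, limma adjusted p = 0.179), day 2 gave -0.93 ± 0.98 (adjusted p = 0.645) and day 3 gave -1.49 ± 0.98 (adjusted p = 0.565).

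IL6R, the ligand-binding receptor for IL6, showed no order between groups beyond its replicate spread. It stood at 0.804 and 5.76 RPKM in day 1 heterokaryons, 4.97 and 0.809 RPKM at day 2 and 1.76 and 6.39 RPKM at day 3, against 4.78 and 1.66 RPKM in co-cultures. The homokaryon library, at 7.77 RPKM, was the highest of the 10 libraries that cover both transcripts, and unfused fibroblast replicate 2 had 3.16 RPKM. Each heterokaryon day has 1 library above both co-cultures; the other lay below both at day 1 and day 2 and between them at day 3. The log2 fold change against co-culture was lowest at day 2 (-0.25 ± 0.97, SE) and highest at day 3 (0.20 ± 0.97), and its adjusted p was at least 0.929 on each day. The day 1 interval, from -2.43 to 2.10, leaves room for a large difference either way.

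IL11RA, the ligand-binding receptor for IL11, is represented by NM_001142784. It stood at 4.47 and 2.54 RPKM at day 1, 0.982 and 0 RPKM at day 2 and 0.344 and 4.27 RPKM at day 3, against 1.89 and 3.52 RPKM in co-cultures. It was 0 in the homokaryon library and in unfused fibroblast replicate 1, and 3.60 RPKM in unfused fibroblast replicate 2. Both day 2 libraries lay below both co-cultures, and the other days overlapped them. The log2 fold change against co-culture was 0.28 ± 0.91 (SE), -1.36 ± 0.92 and -0.44 ± 0.92 at day 1, day 2 and day 3 (adjusted p = 0.902, 0.467 and 0.895).

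LIFR, the LIF receptor subunit, was under 1.2 RPKM in every library. It stood at 0 and 0.0495 RPKM in day 1 heterokaryons, 0.869 and 0.839 RPKM at day 2 and 1.07 and 0.661 RPKM at day 3, against 0.460 and 0.402 RPKM in co-cultures. The homokaryon library had 1.13 RPKM and unfused fibroblast replicate 2 had 0.827 RPKM. Day 1 libraries were the lowest and the day 2 and day 3 libraries lay above both co-cultures. These values kept LIFR below the filter of 1 RPKM in 2 libraries, so it was not in the main test. Without the filter the log2 fold change against co-culture was -0.48 ± 0.20 (SE) at day 1, 0.37 ± 0.21 at day 2 and 0.37 ± 0.20 at day 3 (limma adjusted p = 0.284, 0.474 and 0.592).

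LIFR gave the only member call under any setting tried: without the filter, NM_001127671 fell by 0.93 on the log2 scale at day 1 against unfused fibroblasts (SE 0.16, adjusted p = 0.0298), where 4.52% of 4448 genes were called and 2.27% were called lower. That transcript was at 0 and 0.0245 RPKM in day 1 heterokaryons, against 1.04 and 0.827 RPKM in unfused fibroblast replicates 1 and 2. In replicate 2 the other transcript, NM_002310, was at 0, whereas it stood slightly above NM_001127671 in each of the 8 libraries where both are above 0. Replicate 1 does not cover NM_002310, so the division in unfused fibroblasts rests on 1 library. Between days, without the filter, the LIFR log2 fold change was 0.86 ± 0.21 for day 2 against day 1 (adjusted p = 0.181) and 0.85 ± 0.20 for day 3 against day 1 (0.169).

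**Figure D2:**
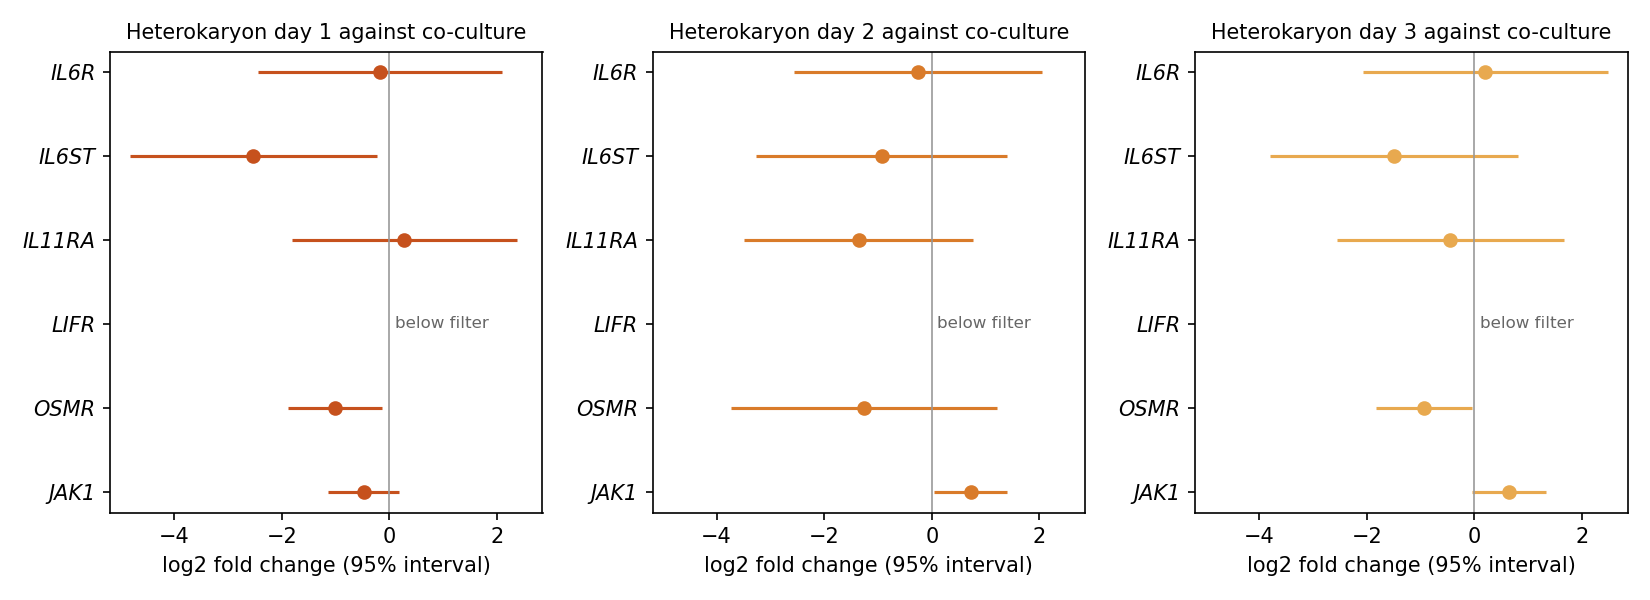
Log2 fold change of each member, on log2(RPKM + 1), for heterokaryons at each day against co-culture; points are limma estimates and lines unadjusted 95% intervals. OSMR at day 2 uses NM_001168355 alone, and LIFR is below the filter. Intervals of JAK1 and of the OSMR sum are narrow beside those of IL6R, IL6ST and IL11RA, and JAK1 is below 0 at day 1 and above 0 at day 2 and day 3.

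Against co-culture no member was called by limma at any day. At day 1, 0 of 5 members tested were called and 2 had an unadjusted p under 0.05, where 6.01% of 6272 genes were called and 22.8% had such a p. IL6ST, OSMR and JAK1 lay lower without overlap, 3 of 5 members, and 25.1% of all genes lay lower without overlap. At day 2, 0 of 5 were called and 1 had an unadjusted p under 0.05, against backgrounds of 3.33% and 19.6%. JAK1 lay higher and IL11RA and the short OSMR transcript lower without overlap, where 33.8% of all genes lay higher and 19.7% lower without overlap. At day 3, 0 of 5 were called and 1 had an unadjusted p under 0.05, against backgrounds of 1.22% and 14.8%. JAK1 lay higher and IL6ST and OSMR lower without overlap, where 23.5% of all genes lay higher and 19.9% lower without overlap. The median log2 fold change of the members was -0.47 at day 1, -0.93 at day 2 and -0.44 at day 3, beside 0, 0.23 and 0.045 over all genes tested. The day 2 median counts OSMR by its short transcript alone (-1.26). Both OSMR transcripts in day 2 replicate 2 alone gave -0.40, so the medians of the days are not alike in coverage.

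Between heterokaryon days no member was called either. For day 2 against day 1, 0.393% of 5347 genes were called and 1 member of 5, JAK1, had an unadjusted p under 0.05, as had 14.7% of all genes. JAK1 and IL6ST (log2 fold change 1.59 ± 0.98, adjusted p = 0.502) lay higher without overlap, as did 28.3% of all genes. IL11RA lay lower without overlap (-1.64 ± 0.92, adjusted p = 0.459), as did 15.2%. For day 3 against day 1, 0.428% of 5837 genes were called and again JAK1 alone had an unadjusted p under 0.05, as had 15.2% of all genes. JAK1 was also the only member to lie apart, higher, as did 20.4%. For day 3 against day 2, 0.243% of 5347 genes were called, and no member of 5 had an unadjusted p under 0.05, as 6.98% of all genes had.

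Against unfused fibroblasts both libraries cover only IL11RA and the IL6R transcript NM_000565 above the filter, and limma called neither, nor did either have an unadjusted p under 0.05. The share of 2990 genes called was 7.86% for day 1, 4.75% for day 2, 2.71% for day 3 and 0.836% for co-culture, and the share with an unadjusted p under 0.05 was 24.5%, 19.6%, 17% and 11.3% in the same order. The smallest adjusted p of these members was 0.544, for IL11RA at day 1 (log2 fold change 1.04 ± 0.92). With unfused fibroblast replicate 2 as the only library of its group, a fit chosen after seeing the data, all 5 members above the filter could be compared. JAK1 then differed by -0.79 ± 0.36 at day 1, 0.40 ± 0.36 at day 2 and 0.32 ± 0.36 at day 3 (adjusted p = 0.332, 0.740 and 0.842). OSMR differed by 1.14 ± 0.46 in co-culture (unadjusted p = 0.0467, adjusted p = 0.732), 0.14 ± 0.46 at day 1 and 0.21 ± 0.46 at day 3.

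Fusion of fibroblasts with each other can be set beside unfused fibroblasts only as values, with 1 homokaryon library and no test. Against unfused fibroblast replicate 2 the homokaryon level was 2.46 times as high for IL6R, 1.89 times for OSMR, 1.26 times for JAK1 and 1.03 times for IL6ST. For LIFR the direction depends on the transcripts counted. The sum over both was 1.37 times as high, with NM_002310 at 0 in that fibroblast library, whereas NM_001127671 alone stood at 0.560 RPKM in the homokaryon library, against 1.04 and 0.827 RPKM in unfused fibroblast replicates 1 and 2, a ratio of 0.602 to their mean. IL11RA was at 0 in the homokaryon library, against 3.60 RPKM in that fibroblast library and 0 in unfused fibroblast replicate 1.

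Taken transcript by transcript, IL6ST and LIFR had a nearly fixed split in the libraries with both transcripts above 0, and the split of IL6R and OSMR varied. For IL6ST, NM_001190981 stood at 1.02 times NM_002184, within 0.1% of the median ratio in 7 of 10 libraries, and the lowest ratio was 0.917. Their coding sequences differ by a segment of 183 bases, 61 codons, present in NM_002184 and absent from NM_001190981. In GENCODE release 29 the whole transcripts are 9057 and 2574 bases long, and the transcript lengths behind the deposited values are not given in the sources used here. The lengths of NM_002184 with and without this segment have a ratio of 1.0206, close to the split. The ratio of whole transcript lengths in that release is 3.52 for IL6ST and 2.37 for LIFR, neither close to its split. Whether the fixed splits of IL6ST and LIFR come from dividing shared reads by length was not tested. They should not be read as a measured balance of transcripts. The start of the segment is shown in capitals after the 15 coding bases before it, since it separates the 2 coding sequences.
IL6ST segment: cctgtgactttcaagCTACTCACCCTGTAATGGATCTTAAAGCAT
LIFR had a ratio of 0.984 between NM_001127671 and NM_002310 in 8 of 8 libraries with both above 0; in unfused fibroblast replicate 2 NM_002310 was at 0, and in day 1 replicate 1 both were. By contrast, the IL6R ratio of NM_001206866 to NM_000565 ranged between 0.431 and 14.4 over 9 libraries.

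The OSMR division differed between the day 1 replicates. In day 1 replicate 1 the short NM_001168355 stood at 10.7 RPKM beside 14.4 RPKM for NM_003999, and in replicate 2 at 0 beside 25.6 RPKM. In the other libraries with both covered the short transcript was at most 1.78 RPKM. The sums of the day 1 replicates, 25.1 and 25.6 RPKM, nearly coincide, while the division differs. Tested one at a time, no member transcript was called at any day against co-culture, where 2.29% of 9293 transcripts were called at day 1, 1.39% of 7985 at day 2 and 0.6% of 8667 at day 3. NM_003999 gave the smallest adjusted p, 0.218 at day 1, with a log2 fold change of -1.35 ± 0.47. At day 1 NM_003999 and both IL6ST transcripts had an unadjusted limma p under 0.05, and no member transcript did at day 2 or day 3. The share of all transcripts with such a p was not computed, so these cannot be set against a background. The IL6ST transcripts, with their nearly fixed split, do not count as separate measurements.

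**Figure D3:**
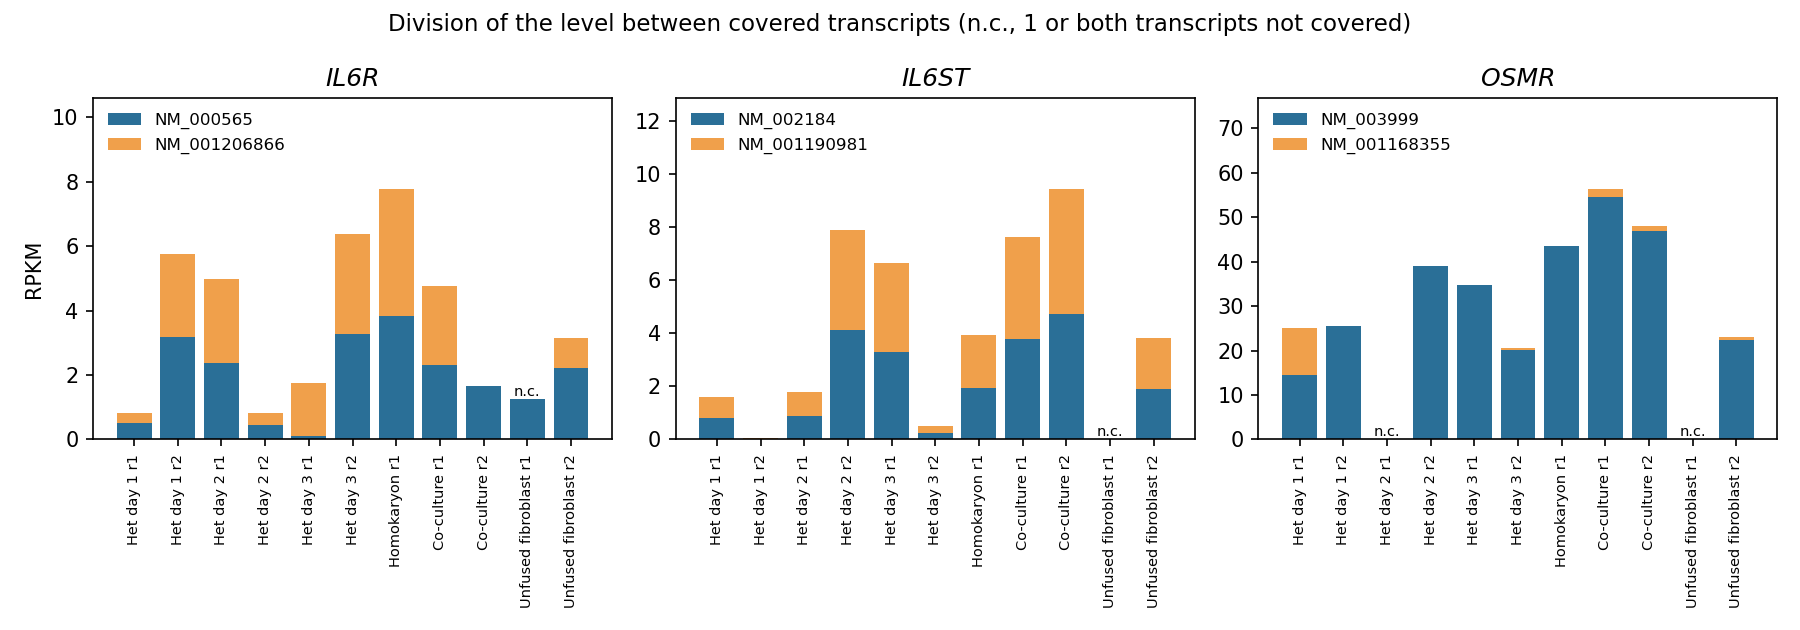
RPKM of the covered transcripts of IL6R, IL6ST and OSMR, stacked by library (r1 and r2, replicates; Het, heterokaryon). IL6ST bars are split nearly evenly throughout, whereas OSMR shows the short transcript at 10.7 RPKM in day 1 replicate 1 and at most 1.78 RPKM elsewhere.

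Around these receptors, 60 other genes of the pathway were listed by role, and 2 of them passed the test against co-culture. At day 1, 36 were tested, 1 higher and 1 lower, where 3.62% of all genes were called higher and 2.39% lower. At day 2, 24 were tested and 1 was lower, where 1.23% of all genes were. At day 3, 27 were tested and none was called by limma. The median log2 fold change over those tested was 0.51, 0.67 and 0.59 at day 1, day 2 and day 3. The gene that was lower was LIF, the ligand of LIFR. It stood at 17.5 and 14.3 RPKM at day 1, 22.9 and 25.7 RPKM at day 2 and 33.0 and 25.0 RPKM at day 3, against 91.1 and 102 RPKM in co-cultures and 7.36 RPKM in unfused fibroblast replicate 2. In the homokaryon library LIF was at 56.9 RPKM, and every heterokaryon library lay above unfused fibroblast replicate 2. Against co-culture LIF was lower by 2.54 ± 0.31 (SE) on the log2 scale at day 1 (limma adjusted p = 0.0103). It was lower by 1.95 ± 0.31 at day 2 (adjusted p = 0.0247), and the day 3 difference was -1.71 ± 0.32 (adjusted p = 0.0607). The day 1 call was lost without co-culture replicate 1 (adjusted p = 0.0864) or replicate 2 (0.0911). At day 2 it was lost with the replicate number as a block (adjusted p = 0.0562) and without any of the 4 libraries (0.13 to 0.168).

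SOCS1, a feedback inhibitor that binds Janus kinases, was the gene that was higher. SOCS1 stood at 81.1 and 73.2 RPKM at day 1, 20.7 RPKM in the covered day 2 library and 21.4 and 18.6 RPKM at day 3, against 0 and 2.43 RPKM in co-cultures. Its log2 fold change was 5.40 ± 0.64 (SE) at day 1 (adjusted p = 0.0133) and 3.50 ± 0.65 at day 3 (adjusted p = 0.0733). The day 1 call was lost without day 1 replicate 1 (adjusted p = 0.0572) or replicate 2 (0.0563), with a pseudocount of 0.1 (0.0509) and with only both compared groups in the fit (0.054). The homokaryon library had 1.66 RPKM and unfused fibroblast replicate 2 had 2.18 RPKM. SOCS2, of the same inhibitor family, stood at 2.27 and 4.74 RPKM at day 1, against 21.0 and 12.1 RPKM in co-cultures (adjusted p = 0.154).

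Among ligands, 7 of 11 were tested at day 1 and 1 was called. CLCF1, also a ligand, went the other way from LIF but was not called at day 1 (limma adjusted p = 0.0504). CLCF1 stood at 4.29 and 2.04 RPKM at day 1 and 1.6 and 0.618 RPKM at day 2. Both day 3 libraries, both co-cultures and unfused fibroblast replicate 2 had 0 RPKM, and the homokaryon library had 2.86 RPKM. IL11, the ligand of IL11RA, stood at 5.60 and 0.223 RPKM at day 1, against 26.1 and 28.2 RPKM in co-cultures (log2 fold change -3.31 ± 0.81, adjusted p = 0.0601). Of 3 other receptors 1 was tested, IL27RA, a partner of gp130 for IL27 (0.90 ± 0.70 at day 1, adjusted p = 0.518). Neither of 2 other Janus kinases tested was called, and TYK2 differed by 0.36 ± 0.37 at day 1 (adjusted p = 0.612). None of 4 STAT genes tested at day 1 was called. STAT3, the main effector of gp130, stood at 27.0 and 34.3 RPKM at day 1, 32.9 and 45.8 RPKM at day 2 and 72.9 and 27.0 RPKM at day 3, against 10.9 and 20.9 RPKM in co-cultures, with adjusted p of 0.352, 0.250 and 0.264 over its covered transcript. STAT3 was at 95.8 RPKM in the homokaryon library and 28.9 RPKM in unfused fibroblast replicate 2. STAT6, which serves interleukin-4 receptors, differed from co-culture by -1.55 ± 0.37 at day 1 (limma adjusted p = 0.0569). It stood at 27.8 and 21.7 RPKM at day 1, against 61.8 and 88.4 RPKM in co-cultures. STAT6 was at 114 RPKM in the homokaryon library and 22.1 RPKM in unfused fibroblast replicate 2.

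In the remaining roles no gene was called at any day. They are adaptors and phosphatases, 7 tested at day 1, sheddases, 1 tested, and STAT3 targets, 10 tested. GRB2, the adaptor that links receptors to Ras, differed by 0.995 ± 0.24 at day 1 (adjusted p = 0.058). ADAM17, the protease that sheds IL6R from the cell surface, differed by 1.34 ± 0.40 at day 2 (adjusted p = 0.117). Among STAT3 targets, PIM3 differed by 2.17 ± 0.57 at day 1 (adjusted p = 0.0654) and MYC by 1.61 ± 0.39 at day 2 (adjusted p = 0.0759). JUNB, also a STAT3 target, went the other way at day 2 (-1.71 ± 0.45, limma adjusted p = 0.0887).

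Markers of other cell types moved between the same groups. Of 5 epithelial markers the 4 covered summed to 150 and 157 RPKM at day 1 and 816 and 1000 RPKM at day 2. At day 3 the sums were 795 and 1180 RPKM, against 19.9 and 39.4 RPKM in co-cultures. Of 7 pluripotency markers the 3 covered, POU5F1, UTF1 and SOX2, summed to 26.9 and 27.4 RPKM at day 1 and 48.6 and 56.9 RPKM at day 2. At day 3 the sums were 18.9 and 27.3 RPKM, against 0 and 0.0847 RPKM in co-cultures. SOX2 was at 0 throughout, so the sums rest on POU5F1 and UTF1. The co-cultures hold mouse stem cell RNA too, and whether mouse reads entered the human values of any library was not tested. For 13 of 15 fibroblast markers covered, the sums were 8990 to 9610 RPKM at day 1, 5760 to 6460 RPKM at day 2 and 8070 to 8960 RPKM at day 3, against 8430 to 8620 RPKM in co-cultures. FN1, a defining fibroblast gene, was at 0 in its covered transcript. Of 8 leukocyte markers the 7 covered summed to at most 13.7 RPKM, with CD68 and CD3E at 0. The 5 endothelial markers summed to at most 7.22 RPKM and the 3 hepatocyte markers to at most 7.84 RPKM, with ALB and TTR at 0. The part of these markers in the JAK1 and LIFR values, which were also higher at day 2 and day 3 than at day 1, was not tested.

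Genes with the pattern nearest to each member were found over the 8 heterokaryon and co-culture libraries among 4625 genes, by the root mean square difference of log2(RPKM + 1) after centring each gene. NACAD was nearest to JAK1 (0.19), with PRKCA next (0.20), and PRKCA lay at 0.16 from LIFR. PRKCA thus stands near both, with 7.20 and 10.6 RPKM at day 1, 17.1 and 17.2 RPKM at day 2 and 21.3 and 17.0 RPKM at day 3, against 11.1 and 11.5 RPKM in co-cultures. SLC26A11 (0.33) and RELL1 (0.38) were nearest to IL6R, FAIM (0.31) and PHETA2 (0.45) to IL6ST, and NR4A1 (0.29) and BGN (0.37) to IL11RA. For OSMR only the short transcript is covered in all 8 libraries, and its nearest genes, NACA and GTF2H2C, lay at 0.51.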

How the data were processed

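Each deposited table lists 1 value per RefSeq transcript accession, and the values were taken to be RPKM as deposited by the authors, inferred from their form. Unfused fibroblast replicate 3, deposited as a signal in an unstated unit, and rows outside the human table were not used. Genome builds hg19 and mm10 are named per the submitters' processing notes; aligner, read totals and whether mixed libraries were scaled over human reads alone are not given in the sources used here. Precision cannot be derived from depth.

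Accessions were joined to genes through the human RefSeq table; 91 older accessions were named through GENCODE release 29, 251 coding accessions stayed unnamed and 311 genes beside them were set aside. Per gene, the NM_ accessions that every library of both groups covers were summed. The comparison used limma 3.58.1 (R 4.3.3; lmFit, eBayes with trend) on log2(RPKM + 1), over 10 libraries of 5 replicated groups, and kept genes with 1 RPKM or more in 2 or more libraries. Fold changes on this scale understate those of low genes. The call is a Benjamini-Hochberg adjusted p under 0.05 over all genes tested. The script was tested on simulated data. The design named all libraries of these groups, and replicate 3 of the unfused fibroblasts was dropped.

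The labels do not say that replicates were separate cultures, so p-values cover the spread between these libraries alone, which may be technical. The 3 days share the same co-culture libraries. The members, the pathway list and the marker lists were chosen with earlier results of these data known. All members are named. Of each pathway role the genes named come from the 3 with the smallest adjusted p at any day. Not all of these are described: JAK3, STAT2, SOS1, PTPN6 and SOCS3 were among them, and none was called. Other pseudocounts, filters, scalings, coverage rules, fits and left-out libraries were tried. Of the genes nearest to the members in pattern, 1 is not reported here.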

Additional observations from a re-analysis of the deposited data

How the results depend on the processing

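Of 257 recomputed member values 244 kept direction and side of the threshold and 13 reversed, none of them called. The count of members called stayed at 0 under 127 of 128 alternatives; the exception was 1 member, LIFR, for day 1 against unfused fibroblasts with no filter on low values. JAK1 at day 3 against day 2 turned to 0.16 with upper quartile scaling and 0.037 with quantile normalization. Leaving out 1 library moved the log2 fold change against co-culture of IL6R between -1.12 and 0.79 (day 1), between -1.12 and 0.61 (day 2) and between -0.51 and 0.92 (day 3), and that of IL11RA between -0.039 and 0.60 (day 1) and between -1.43 and 0.54 (day 3). For IL6ST the range was -3.19 to -1.86 (day 1), -1.77 to -0.096 (day 2) and -2.66 to -0.31 (day 3). For day 3 against day 1 it moved IL6ST between -0.14 and 2.22 and OSMR between -0.30 and 0.44. The cause was not tested. Replicates that share a number did not deviate together (correlations from -0.0544 to 0.0123), and with the replicate number as a block the count of members called stayed at 0 in all 10 comparisons. Of 399 recomputed pathway values, which leave out CLCF1 and JUNB, 12 lost their call and 8 gained one. With only genes whose accessions are all covered, fewer genes being tested, IL11, STAT6 and PIM3 passed at day 1 (adjusted p = 0.0362, 0.0347 and 0.043), MYC at day 2 (0.0367) and LIF and SOCS1 at day 3 (0.0295 and 0.0331). Without day 1 replicate 1, IL11 at day 1 had an adjusted p of 0.0339, and with only both groups in the fit MYC at day 2 had 0.034. Counts over all genes moved more: against co-culture 377 genes were called at day 1, 61 with only both groups in the fit, 196 with the block and 34 to 157 with 1 library left out. At day 2 the counts were 178, 378, 103 and 18 to 33, and at day 3 they were 71, 0, 48 and 10 to 141, in the same order. Between days and against unfused fibroblasts the 2-group fit called 0 to 532 genes, where 13 to 235 were called in the main comparison. Unknown depth limits what can be said of LIFR, IL11RA and low IL6ST values.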
